A study of Gallus gallus with 24 samples.

Results

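The 14-3-3 family was described in the hypothalamus of 24 broiler chickens by the 6 family genes that the expression table names with a YWHA symbol, out of 16779 genes in the table. They are YWHAE (the epsilon protein), YWHAZ (zeta), YWHAB (beta), YWHAG (gamma), YWHAQ (theta) and YWHAH (eta), and all 6 passed the filter on low counts that kept 13742 genes for testing. YWHAE was selected on its measured level, which was lower in 3 treatment groups than in the control group of these same libraries, so those differences are given as a description and are not evidence of anything further. The other 5 genes were taken because they belong to the family.

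14-3-3 proteins are small acidic adaptors that work as dimers and bind serine- or threonine-phosphorylated sites on other proteins, which changes where those proteins sit in the cell, how active they are or how long they last. They are among the most abundant proteins of the vertebrate brain, and their gene symbols recall that they were first known as activators of tyrosine and tryptophan hydroxylase, the enzymes that start catecholamine and serotonin synthesis. The family members share most of their sequence and can pair with each other.

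All birds were Ross 308 broilers killed at 42 days of age, and RNA of the dissected hypothalamus was sequenced as 1 library per bird. Basal 35 °C birds ate the basal diet and were kept at 35 °C from day 28. L-citrulline 24 °C birds ate a diet with 1% L-citrulline, an amino acid that the body converts to arginine, and were kept at 24 °C. L-citrulline 35 °C birds had that diet and the heat, and basal 24 °C birds had neither and were the control group. Each group held 6 birds, 1 from each of 6 replicates of 12 chickens, and relative humidity was 60% at both temperatures. The labels give neither the sex of the birds nor the chamber or cage of each bird, so p-values here measure the spread between birds, and any effect of a chamber cannot be told apart from that of its temperature.

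The libraries held 12635239 to 15001037 counts, with 14865 to 15054 genes detected. All 16 hypothalamic region genes of the marker list were in the table, and AVP, the vasotocin precursor gene of hypothalamic neurosecretory cells, was measured at 615.6 to 6724 CPM (counts scaled to library size), while HMX2 and PMCH of the same list were at 0 in at least 1 library. The 7 anterior pituitary genes found in the table summed to between 6.12 and 11.2 CPM per library. Genes of chromosome W, which female chickens carry, split the libraries into 12 with 1253 to 1534 CPM and 12 with 4.99 to 9.86 CPM from that chromosome. The high class held 2 basal 35 °C, 4 L-citrulline 24 °C, 4 L-citrulline 35 °C and 2 basal 24 °C birds. Because whole tissue was sequenced, fewer cells of a type and less RNA per cell cannot be told apart.

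By its measured counts YWHAE was the low member of a very abundant family, on a gene model that another gene overlaps, as described below. On the FPKM scale, which divides counts by gene length and so allows genes to be compared, mean levels over the 24 birds were 790.1 for YWHAG, 438.0 for YWHAZ, 432.6 for YWHAH, 406.0 for YWHAQ, 399.6 for YWHAB and 20.1 for YWHAE. YWHAG lay above YWHAZ, the next gene, in 24 of 24 birds. The next 4 genes were not separated bird by bird: YWHAZ exceeded YWHAH in 10 of 24 birds, YWHAH exceeded YWHAQ in 17, and YWHAQ exceeded YWHAB in 16. YWHAB exceeded YWHAE in 24 of 24, and the mean FPKM of the 5 abundant genes was 19.8 to 39.2 times that of YWHAE. The mean FPKM of YWHAE was above that of 68.8% of tested genes, while the other 5 were above 99.3% to 99.7% of them. The 6 genes together summed to a mean of 2578 ± 204 FPKM in basal 35 °C birds, 2423 ± 177 in L-citrulline 24 °C birds, 2401 ± 387 in L-citrulline 35 °C birds and 2544 ± 126 in basal 24 °C birds (SD, n = 6 each). YWHAE made up 0.735%, 0.793% and 0.816% of that sum in the same 3 treatment groups and 0.928% in basal 24 °C birds.

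**Figure D1:**
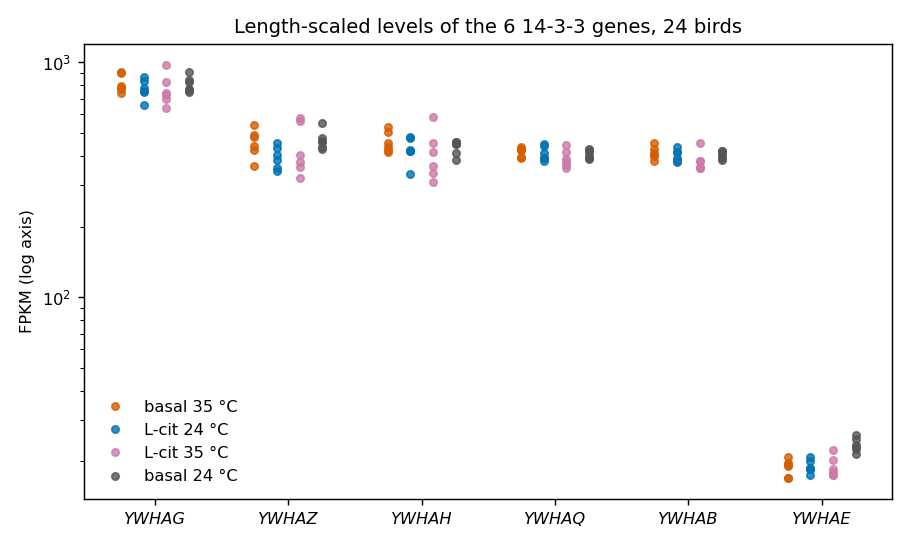
Length-scaled level (FPKM, log axis) of each 14-3-3 gene, 1 point per bird, with groups side by side in colour. YWHAG is highest in every bird (mean 790.1 FPKM), the next 4 genes overlap between 399.6 and 438.0 FPKM on average, and YWHAE lies below them at 20.1 FPKM. The gene model of YWHAE is overlapped by another gene, and the part of this in its level was not tested.

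The low count of YWHAE rests on a gene model that another gene overlaps. YWHAE (ENSGALG00000002661) is annotated in GRCg6a coordinates at chromosome 19, 5330957 to 5350899, on the plus strand, with a length of 1807 bases in the table. A gene with no symbol, ENSGALG00000050199, is listed from 5340047 to 5350894 on the same strand, inside YWHAE, where it covers 54.4% of the 19943 bases that YWHAE spans and ends 5 bases before it. That gene had 0 counts in all 24 libraries, which allows a level of up to 0.237 CPM in the shallowest library by counting error alone. Of the 368 genes of the table that lie inside another gene of the same strand, 71 (19.3%) had 0 counts in all libraries, against 479 (2.92%) of the 16411 other genes. Counting tools commonly discard reads that fall in the exons of more than 1 gene, and the setting used for these counts is not given in the sources used here. How much of the difference in level between YWHAE and the other 5 genes comes from such reads was not tested. None of the other 5 genes is overlapped in this way.

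The other 5 genes lie apart from one another. YWHAG (ENSGALG00000017358) is on the same chromosome as YWHAE, at 4382201 to 4400820 on the plus strand. YWHAB (ENSGALG00000004143) lies on chromosome 20 at 5242537 to 5256414, YWHAH (ENSGALG00000006743) on chromosome 15 at 9108063 to 9116390, YWHAQ (ENSGALG00000016433) on chromosome 3 at 96266562 to 96292983 and YWHAZ (ENSGALG00000031387) on chromosome 2 at 128539050 to 128565423, these 4 on the minus strand. SFN, which encodes 14-3-3 sigma, an epithelial family member in mammals, was nearly absent, with 0 to 11 counts per library, and did not pass the filter. Its counts summed to 8 in basal 35 °C birds, 22 in L-citrulline 24 °C birds, 32 in L-citrulline 35 °C birds and 7 in basal 24 °C birds.

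The level of YWHAE was about equal in the 3 treatment groups and higher in the control group. In basal 35 °C birds it ran from 30.3 CPM through a median of 34.6 to 37.6 CPM. In L-citrulline 24 °C birds the lowest, median and highest values were 31.1, 33.8 and 38.9 CPM, and in L-citrulline 35 °C birds they were 30.9, 33.4 and 41.6 CPM. In basal 24 °C birds they were 39.3, 41.9 and 46.8 CPM. Every basal 35 °C bird and every L-citrulline 24 °C bird lay below every basal 24 °C bird, and 5 of 6 L-citrulline 35 °C birds did, with bird 1 of that group (41.6 CPM) inside the control range. Complete separation below the control group was found for 15 of 13742 tested genes (0.109%) in basal 35 °C birds, for 22 (0.16%) in L-citrulline 24 °C birds and for 12 (0.0873%) in L-citrulline 35 °C birds. Since YWHAE was chosen for this pattern, nothing is read from these shares.

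**Figure D2:**
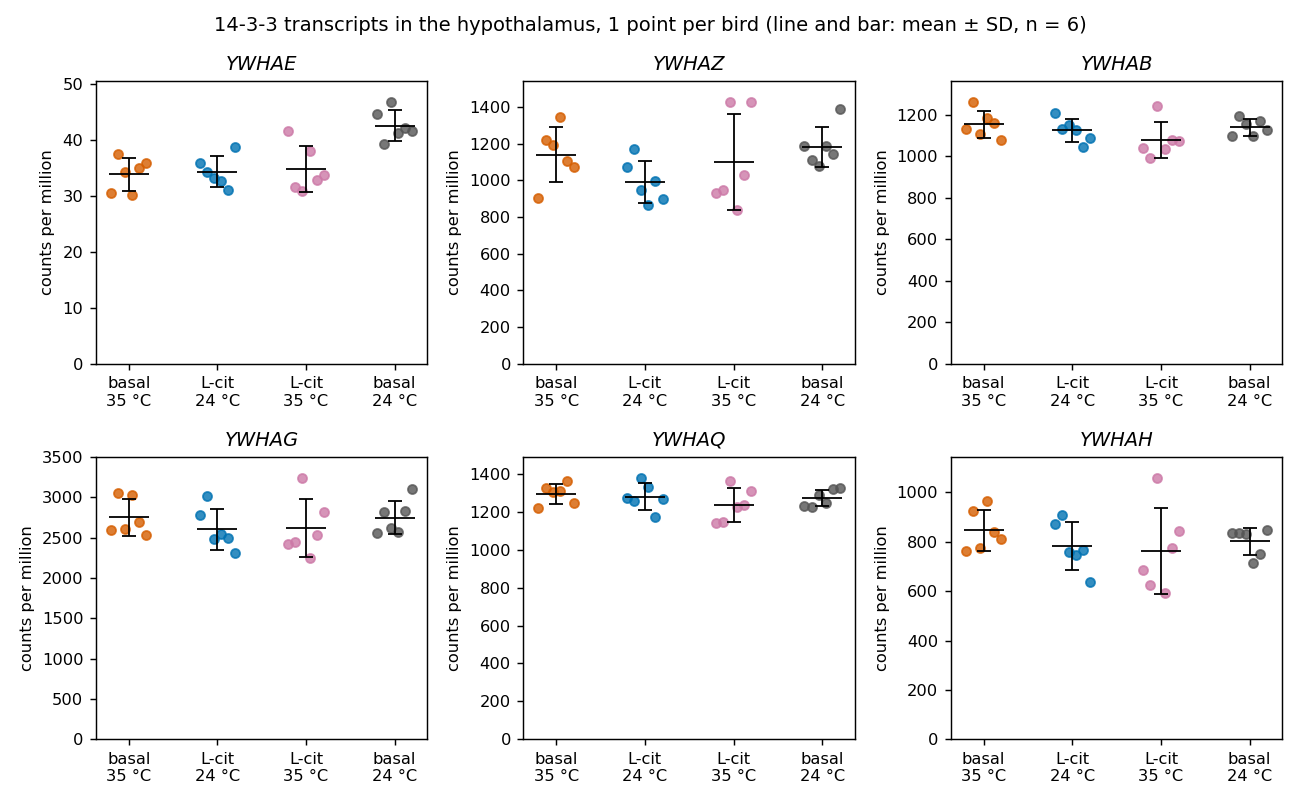
CPM of each 14-3-3 gene, 1 point per bird, with the mean and SD of 6 birds as a line and bar; every axis starts at 0. In the YWHAE panel the control birds (39.3 to 46.8 CPM) stand above the treated birds, with 1 L-citrulline 35 °C bird at 41.6 CPM among them, and in the other panels the 4 groups overlap.

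Means of YWHAE were 33.9 ± 3.0 CPM in basal 35 °C birds, 34.4 ± 2.7 in L-citrulline 24 °C birds, 34.8 ± 4.2 in L-citrulline 35 °C birds and 42.6 ± 2.7 in basal 24 °C birds (SD, n = 6 each). In order from the top the groups were therefore basal 24 °C, L-citrulline 35 °C, L-citrulline 24 °C and basal 35 °C, and the last 3 differed from each other by less than the SD of any of them. Against basal 24 °C birds the log2 fold change was -0.33 ± 0.075 in basal 35 °C birds, -0.31 ± 0.075 in L-citrulline 24 °C birds and -0.29 ± 0.075 in L-citrulline 35 °C birds (± SE), which are levels 20.4%, 19.4% and 18.3% lower. These 3 values, for which YWHAE was chosen, share the same 6 control birds and are a description. Their 95% confidence intervals were -0.49 to -0.17, -0.47 to -0.15 and -0.45 to -0.14. With edgeR and Benjamini-Hochberg adjustment over all genes, 0 of 13742 genes (0%) passed in any of these 3 comparisons, so YWHAE did not either. At an unadjusted p under 0.05 there were 507 genes (3.69%) in basal 35 °C birds, 958 (6.97%) in L-citrulline 24 °C birds and 533 (3.88%) in L-citrulline 35 °C birds against the control, and 21 genes (0.153%) were lower at that level in all 3. DESeq2 called 0, 8 and 0 genes and limma voom called 0 in each, and YWHAE was not among the calls. In the authors' deposited table the log2 fold changes of YWHAE were -0.33, -0.31 and -0.29, which were made from the same counts.

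Between the treated groups YWHAE hardly varied. L-citrulline 35 °C birds minus L-citrulline 24 °C birds gave a log2 fold change of 0.019 ± 0.076, with a 95% confidence interval of -0.14 to 0.18. L-citrulline 35 °C birds minus basal 35 °C birds gave 0.038 ± 0.076 (-0.12 to 0.19), and basal 35 °C birds minus L-citrulline 24 °C birds gave -0.019 ± 0.076 (-0.18 to 0.14). These intervals leave room for differences of up to about 0.19 in either direction. The change with heat on the L-citrulline diet minus the change with heat on the basal diet was 0.35 ± 0.11 on the log2 scale for YWHAE, a value that contains the same low groups that chose the gene. The interaction called 0 of 13742 genes with edgeR, 1039 (7.56%) at an unadjusted p under 0.05, and 2 with DESeq2.

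Within each W class the mean of YWHAE was highest in the control group, over sets of 2 to 4 birds. YWHAE was chosen for its lower level outside that group, so this order is a description and supports nothing further. Among the high-W birds YWHAE averaged 36.8 CPM in 2 basal 35 °C birds, 34.1 in 4 L-citrulline 24 °C birds, 34.3 in 4 L-citrulline 35 °C birds and 43.4 in 2 basal 24 °C birds. Among the low-W birds the means were 32.5 CPM in 4 basal 35 °C, 35.0 in 2 L-citrulline 24 °C, 35.9 in 2 L-citrulline 35 °C and 42.2 in 4 basal 24 °C birds. High-W minus low-W birds differed by 0.027 ± 0.057 on the log2 scale for YWHAE (adjusted p = 0.933 by edgeR), and no member passed between the W classes, with adjusted p of 0.774 or more, where 508 of 13742 genes (3.7%) did.

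YWHAE was read from 392 to 648 counts per library, and counting error alone is 3.93% to 5.05% of such values. The SD between birds within a group was 6.31% to 12.0% of the mean CPM of YWHAE. The other 5 genes had 7966 to 45391 counts and a counting error of 0.469% to 1.12%, so nearly all of their spread is between libraries.

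None of the 5 abundant genes differed with heat or diet past the threshold. Over the 6 pairwise comparisons of groups, 0 of their 30 log2 fold changes passed the adjusted threshold of 0.05 (background 0% of genes by edgeR), and 1 had an unadjusted p under 0.05. This was YWHAZ in L-citrulline 24 °C against basal 24 °C birds, where 6.97% of all genes were at that level. The other comparisons had 0 such values each. There the share of all genes was 3.69% for basal 35 °C and 3.88% for L-citrulline 35 °C against basal 24 °C birds. It was 6.71% for L-citrulline 35 °C against L-citrulline 24 °C birds, 6.43% for L-citrulline 35 °C against basal 35 °C birds and 4.33% for basal 35 °C against L-citrulline 24 °C birds. The 30 values lay between -0.25 and 0.20, and their 95% confidence intervals between -0.50 and 0.45.

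YWHAZ, whose protein binds many phosphorylated signalling proteins, had the largest difference of the 5. It was measured at 863.0, 972.4 and 1171 CPM (lowest, median and highest) in L-citrulline 24 °C birds and at 1079, 1165 and 1389 CPM in basal 24 °C birds. The means were 991.6 ± 115 and 1183 ± 110 CPM, a log2 fold change of -0.25 ± 0.12 (95% confidence interval -0.50 to -0.0059, adjusted p = 0.703 by edgeR, n = 6 and 6). With 1 bird left out at a time it ran from -0.31 without L-citrulline 24 °C bird 2 to -0.20 without basal 24 °C bird 6 (1389 CPM). In the authors' deposited table the same comparison had p = 0.00427 and an adjusted p of 0.951. In basal 35 °C birds YWHAZ averaged 1140 ± 150 CPM and in L-citrulline 35 °C birds 1099 ± 260 CPM, with log2 fold changes against basal 24 °C birds of -0.053 ± 0.12 and -0.11 ± 0.12 (adjusted p = 1 and 0.983 by edgeR). The last value ranged from -0.20 without bird 6 to -0.040 without bird 4 of the L-citrulline 35 °C group.

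YWHAG, the form known for its high level in neurons, averaged 2752 ± 230 CPM in basal 35 °C birds, 2604 ± 253 in L-citrulline 24 °C birds, 2618 ± 357 in L-citrulline 35 °C birds and 2748 ± 209 in basal 24 °C birds. Its log2 fold changes against the control group were 0.0023 ± 0.081, -0.077 ± 0.081 and -0.070 ± 0.081 (adjusted p = 1, 0.892 and 0.983 by edgeR). The first of these has a 95% confidence interval of -0.16 to 0.17. YWHAH, which in mammals is also strong in neurons, averaged 845.4 ± 82, 781.0 ± 97 and 763.3 ± 173 CPM in the same 3 groups and 802.4 ± 55 CPM in basal 24 °C birds, and its values overlapped in all 4.

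YWHAB and YWHAQ varied least between birds, with an SD of 5.93% and 5.15% of the mean CPM over all 24. YWHAB, a partner of RAF kinases in mammals, averaged 1154 ± 64 CPM in basal 35 °C birds, 1126 ± 55 in L-citrulline 24 °C birds, 1077 ± 87 in L-citrulline 35 °C birds and 1140 ± 40 in basal 24 °C birds. YWHAQ averaged 1295 ± 52, 1279 ± 70 and 1236 ± 88 CPM in those 3 groups and 1272 ± 45 CPM in basal 24 °C birds. Their narrow spread bounds the differences: against basal 24 °C birds, the 95% confidence intervals of YWHAQ were -0.075 to 0.13, -0.092 to 0.11 and -0.14 to 0.058. Those of YWHAB were -0.087 to 0.12, -0.12 to 0.088 and -0.19 to 0.024.

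**Figure D3:**
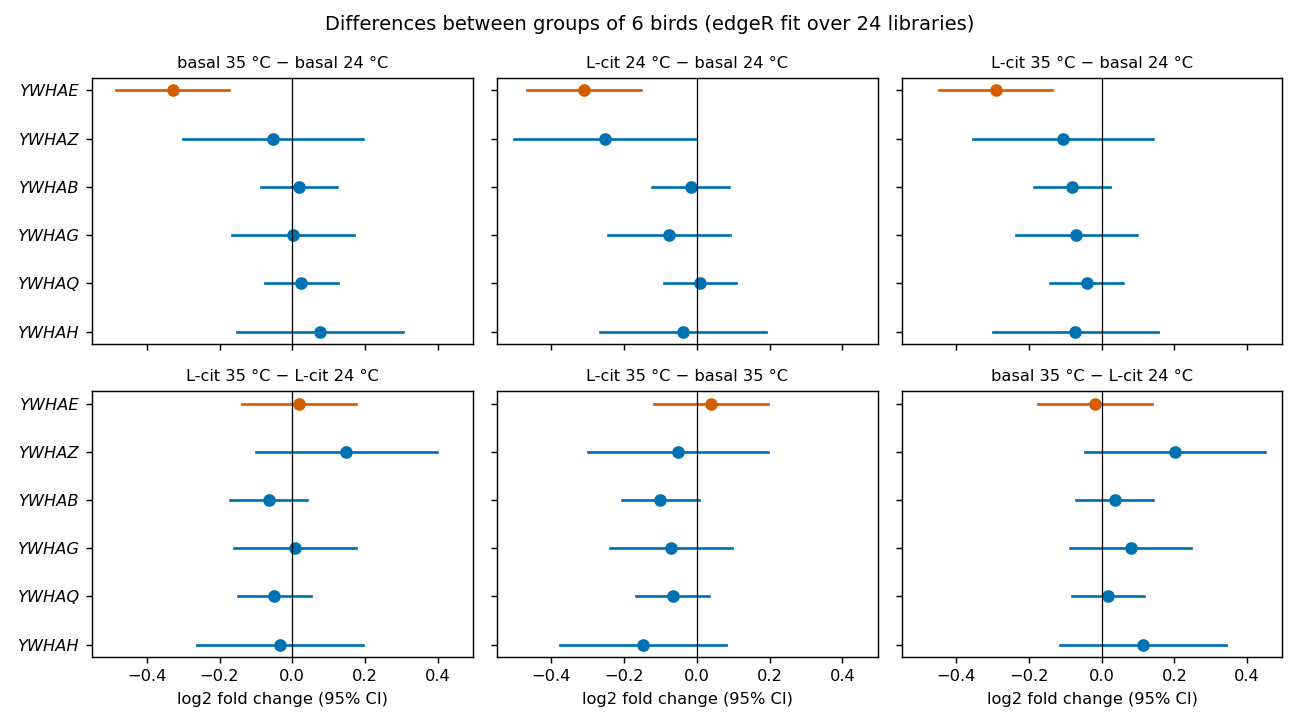
Log2 fold changes of the 6 genes between groups, from the fit over 24 libraries; points are estimates, lines 95% confidence intervals, and each panel title gives the group on top minus the group below. The intervals of YWHAE lie below 0 in the 3 upper panels, which share the basal 24 °C birds, and span 0 in the 3 lower ones. YWHAE was chosen for its low level in the 3 upper comparisons, so those intervals are a description. It passed in none of them after adjustment over all genes.

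The L-citrulline 35 °C group was the most variable. The SD was 23.7% of the mean for YWHAZ and 22.7% for YWHAH there, against 9.27% to 13.2% for YWHAZ and 6.81% to 12.4% for YWHAH in the other 3 groups. Birds 3 and 6 of this group had 1425 and 1427 CPM of YWHAZ, and the other 4 had 837.1 to 1029 CPM. Bird 3 was also the highest of its group for YWHAH (1059 CPM), YWHAG (3243 CPM) and YWHAB (1242 CPM). Its oligodendrocyte marker score (the mean z-score of log2 CPM over the list) was -2.72, the lowest of all 24 birds, where the other 5 birds of the group had -0.46 to 1.70. Without bird 3 the log2 fold change of YWHAH in L-citrulline 35 °C birds against basal 24 °C birds was -0.19, against -0.072 with it, and that of YWHAG was -0.14, against -0.070.

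Bird by bird, the 5 abundant genes varied together. Of the 10 pairs among the 5, all 10 had a positive correlation of log2 CPM past the threshold by a permutation test of Pearson's r adjusted over 15 pairs, with r between 0.45 and 0.88 over 24 birds (median 0.71), and 8 passed by Spearman's rho (0.42 to 0.84). The closest pair was YWHAG and YWHAH, with r = 0.88 and rho = 0.84 (adjusted permutation p = 7.5e-05 for both) and r = 0.87 without the 2 birds farthest from the median of YWHAG. The loosest was YWHAZ and YWHAQ, with r = 0.45 (adjusted permutation p = 0.0412) and rho = 0.43 (0.0592). For the 5 pairs with YWHAE, r ran from -0.17 to 0.048 and rho from -0.14 to 0.071. These values hold the gap between control and treated birds for which YWHAE was chosen, so they are a description with no test. Counting error was 3.93% to 5.05% for YWHAE and 0.469% to 1.12% for the others, and only the gene model of YWHAE is overlapped. The part of either in these low correlations was not tested. After the 4 group means were taken out, 10 of the 10 pairs still passed by r (0.49 to 0.88) and 7 by rho, while the pairs with YWHAE had r of -0.36 to -0.093 and 0 passed. Without the 2 birds at the extremes, r among the 5 was 0.38 to 0.87 for levels and 0.30 to 0.81 for the deviations from group means. These genes share their library and its scaling, and a sample's abundant transcripts displace each other in CPM. The share of all gene pairs that would pass was not counted, so the 10 pairs are not shown to be particular to the family.

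The levels of the 5 abundant genes were also set against scores of cell type markers. The part of those scores in the correlations between the genes was not tested. Myelin genes took a large and uneven share of the RNA. The 8 oligodendrocyte genes found of 12 listed summed to 22520 to 49890 CPM in basal 35 °C birds, 30740 to 61220 in L-citrulline 24 °C birds, 15780 to 66520 in L-citrulline 35 °C birds and 28290 to 47570 in basal 24 °C birds. All 5 abundant 14-3-3 genes were lower where that score was higher, after adjustment over 60 relations of 6 genes with 10 marker lists. YWHAG had r = -0.88 and rho = -0.86 with the oligodendrocyte score (adjusted permutation p = 0.0002 and 0.0003), and r = -0.83 without the 2 birds farthest from the median score. For YWHAH r was -0.83 (rho -0.73), for YWHAZ -0.75 (rho -0.74), for YWHAB -0.73 (rho -0.70) and for YWHAQ -0.63 (rho -0.66), with adjusted permutation p of 0.0002 to 0.0046 for r. Within groups the values were of the same size, with r = -0.88 for YWHAG and -0.62 for YWHAQ after the group means were taken out. The r of YWHAG with this score was lower than that of 99.9% of tested genes and that of YWHAQ lower than that of 94.1%. For YWHAH, YWHAZ and YWHAB the shares were 99.4%, 98.2% and 97.6%. How many of all tested genes pass with this score was not counted.

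**Figure D4:**
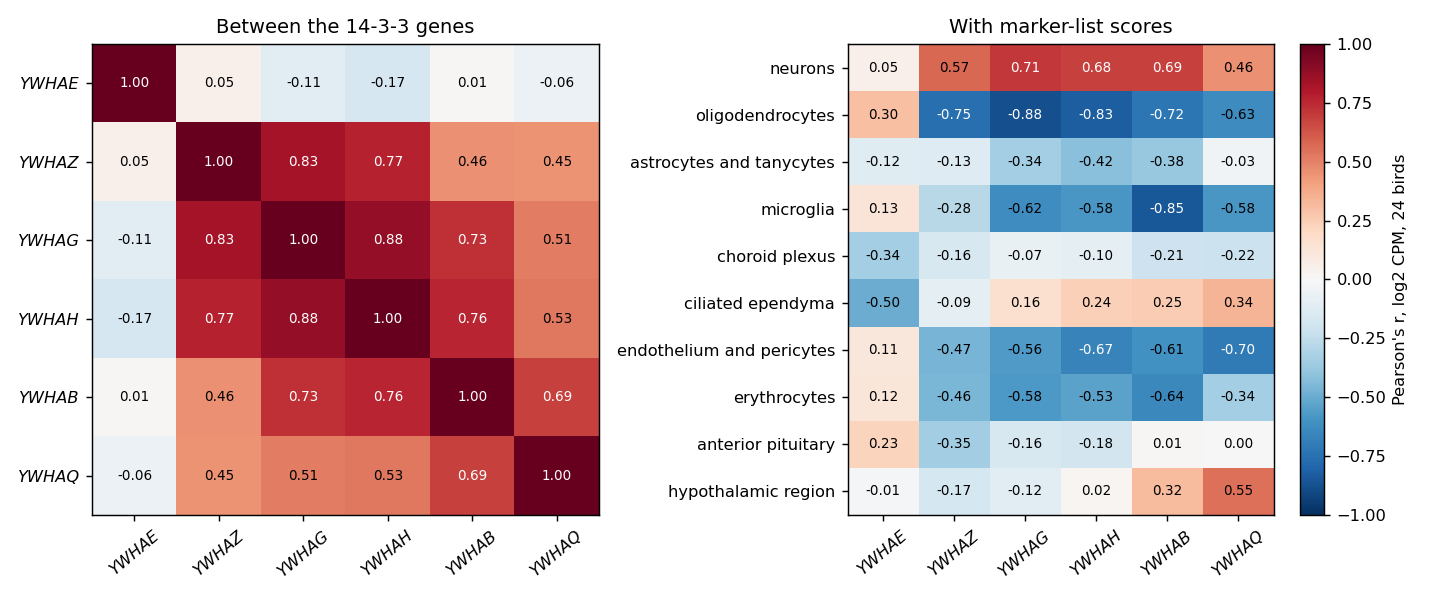
Pearson's r of log2 CPM over 24 birds between the 14-3-3 genes (left) and with the mean z-score of 10 marker lists (right); red is positive and blue negative. The 5 abundant genes form a block of positive values (0.45 to 0.88) and are negative with the oligodendrocyte list (-0.88 to -0.63). YWHAE is near 0 with the other members, and its values hold the gap between control and treated birds for which it was chosen.

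With the 12 neuron markers the sign was turned round. YWHAG (r = 0.71, rho = 0.71), YWHAB (0.69 and 0.70), YWHAH (0.68 and 0.69) and YWHAZ (0.57 and 0.62) had positive correlations past the threshold, with adjusted permutation p of 0.000857 to 0.0116 for r. Among all tested genes, 0.9% had a higher r with the neuron score than YWHAG, 1.2% than YWHAB, 1.3% than YWHAH and 4.5% than YWHAZ. YWHAQ, at r = 0.46 and rho = 0.32, did not pass (adjusted permutation p = 0.0596 and 0.234). YWHAB stood out by its relation with the 5 kept microglia genes, at r = -0.85 and rho = -0.87 (adjusted permutation p = 0.0002 and 0.0003), where YWHAG, YWHAQ and YWHAH had r of -0.62 to -0.58 and YWHAZ had -0.28. The share of tested genes with a lower r there was 0.0% for YWHAB and 1.8% to 2.9% for YWHAG, YWHAQ and YWHAH. For YWHAZ it was 21.7%. YWHAQ was the only one of the 5 abundant genes whose r with the hypothalamic region list passed (0.55, adjusted permutation p = 0.0155). That relation did not pass by rho (0.47, adjusted permutation p = 0.0587). With the 9 endothelium and pericyte genes found, YWHAQ had r = -0.70 and rho = -0.70 (adjusted permutation p = 0.000857 and 0.00186), a larger value than its r with oligodendrocytes and lower than that of 99.5% of tested genes. YWHAH (r = -0.67, rho = -0.58) passed there by both measures (adjusted permutation p = 0.0024 and 0.0148). YWHAB (-0.61 and -0.47) and YWHAG (-0.56 and -0.46) passed by r alone, and YWHAZ (-0.47 and -0.44) by neither. Tested genes with a lower r made up 0.9% for YWHAH, 1.9% for YWHAB and 3.3% for YWHAG. Of the erythrocyte list, HBBA and HBZ averaged 0.003 and 0.013 CPM and HBAD had no entry. HBA1 averaged 36.9 CPM and CA2 252.6 CPM, and how far the score follows red cells was not tested. With the 5 kept erythrocyte genes YWHAB had r = -0.64 and rho = -0.72 (adjusted permutation p = 0.0046 and 0.00156), YWHAG -0.58 and -0.57, and YWHAH -0.53 and -0.54, and all 3 passed by both measures, while YWHAZ and YWHAQ did not. In that order, 0.4%, 1.5% and 2.9% of tested genes had a lower r than these 3. The differences between these correlations were not tested, and how many of all tested genes pass with each score was not counted. How far the scores of different lists move together was not tested either, so these are not shown to be separate relations.

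YWHAE had r = 0.053 (rho = 0.062) with the neuron score and r = 0.30 (rho = 0.20) with the oligodendrocyte score over all birds. With the choroid plexus score it had r = -0.34 and rho = -0.49. After the group means were taken out, the r of YWHAE with the oligodendrocyte score was 0.51. Over all 24 birds YWHAE had r = -0.50 and rho = -0.51 with the list of ciliated ependyma, the lining of the ventricles. All these values over the 24 birds hold the gap between the control and the treated birds. YWHAE was chosen for that gap, so they are a description with no test. The mean ependyma score was 0.21 in basal 35 °C birds, 0.72 in L-citrulline 24 °C birds, -0.42 in L-citrulline 35 °C birds and -0.51 in basal 24 °C birds. After the group means were taken out, r with ependyma was -0.34, smaller in size than the 0.51 with oligodendrocytes, and neither was tested. The 11 ependyma genes found summed to 171.8 to 206.5 CPM in basal 35 °C birds, 162.2 to 234.5 in L-citrulline 24 °C birds, 138.5 to 184.8 in L-citrulline 35 °C birds and 142.4 to 194.4 in basal 24 °C birds. Their part in the level of YWHAE was not tested.

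**Figure D5:**
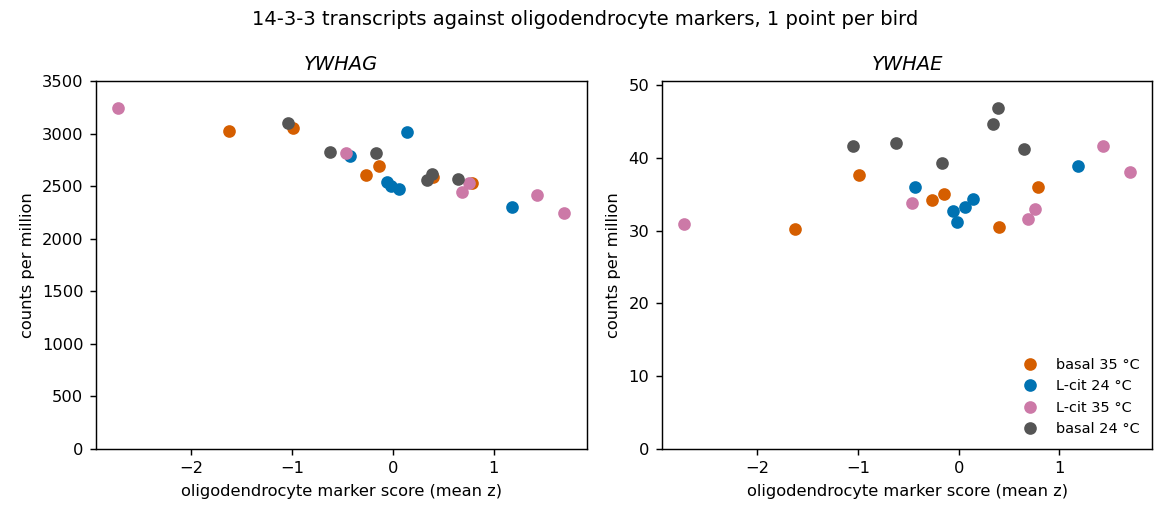
CPM of YWHAG (left) and YWHAE (right) against the oligodendrocyte marker score, 1 point per bird, coloured by group, with both CPM axes starting at 0. YWHAG falls along the score in all groups (r = -0.88). For YWHAE (r = 0.30 over all birds) the basal 24 °C birds, with scores of -1.04 to 0.65, lie above the treated birds. The exception is 1 L-citrulline 35 °C bird at 41.6 CPM among them. YWHAE was chosen for this gap.

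With the oligodendrocyte score as a covariate, an alternative added after these relations were seen, the standard error of YWHAG against basal 24 °C birds was 0.042 in place of 0.081, and that of YWHAZ 0.076 in place of 0.12. No fold change of a member passed in that fit either. YWHAE had log2 fold changes of -0.31, -0.33 and -0.31 (SE 0.067 to 0.068) in basal 35 °C birds, L-citrulline 24 °C birds and the L-citrulline 35 °C group against basal 24 °C birds, where the fit without the score gave -0.33, -0.31 and -0.29. These are the differences for which YWHAE was chosen, and the part of cell types in them was not tested.

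Over the 24 birds YWHAE had r = 0.34 and rho = 0.35 with the depth of the library. With the mitochondrial share of counts it had r = 0.010 and rho = 0.11. With the share from nuclear genes shorter than 1000 bases it had r = 0.17 and rho = 0.16. These values hold the gap between control and treated birds for which YWHAE was chosen, so they are a description with no test. The part of these library measures in the level of YWHAE was not tested. None of the relations of the other members with these measures passed. Their adjusted permutation p was 0.507 or more, with adjustment over the 18 relations of the 6 genes.

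By levels over the 24 birds, which hold the gap for which YWHAE was chosen, the genes most like it were not 14-3-3 genes. By Pearson's r of log2 CPM the 6 nearest were COX6C, a cytochrome c oxidase subunit (r = 0.74, rho = 0.80), ENSGALG00000051266, annotated as the epsilon subunit of the ATP synthase F1 part (0.72 and 0.74), NDUFS6, a complex I subunit (0.72 and 0.66), SNAPC5, of the complex that activates small nuclear RNA genes (0.71 and 0.75), UQCR10, a complex III subunit (0.71 and 0.65), and COX17, a copper chaperone of cytochrome c oxidase (0.71 and 0.69). These are the ends of a ranking of 13742 genes and carry no test. All 6 had their highest group mean in basal 24 °C birds, the pattern for which YWHAE was chosen. COX6C averaged 181.9 CPM in basal 35 °C birds, 177.4 in L-citrulline 24 °C birds, 186.4 in L-citrulline 35 °C birds and 204.6 in basal 24 °C birds. After the group means were taken out, r with YWHAE was 0.57 for COX6C and 0.77 for SNAPC5. At the other end stood DYDC1 (r = -0.74, rho = -0.76), with 19.3, 21.7 and 17.6 CPM in those 3 treatment groups and 12.0 CPM in basal 24 °C birds, TTC34 (r = -0.68), the unnamed ENSGALG00000054637 (-0.68) and ENSGALG00000033522, annotated as a copper-containing amine oxidase (-0.68). The other 14-3-3 genes ranked between 5813 and 10175 of 13742 by their r to YWHAE.

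None of the genes beside YWHAE on chromosome 19 passed the threshold in a comparison with basal 24 °C birds, where 0 of all 13742 tested genes (0%) did. CRK, an adaptor of tyrosine kinase signalling that ends 5.5 kb before YWHAE starts, had 54.6 CPM in basal 35 °C birds, 54.0 in L-citrulline 24 °C birds, 54.5 in L-citrulline 35 °C birds and 55.8 CPM in basal 24 °C birds, with log2 fold changes of -0.031, -0.047 and -0.032 (SE 0.060 each). MYO1C, a myosin gene on the opposite strand 2.0 kb beyond its end, had 31.2, 35.9 and 38.3 CPM in the 3 treatment groups and 33.5 CPM in basal 24 °C birds. PITPNA, a phosphatidylinositol transfer protein gene further along, had 340.4, 342.5 and 347.2 CPM in the treatment groups and 372.8 CPM in basal 24 °C birds, with log2 fold changes of -0.13, -0.12 and -0.10 (SE 0.052 each). NCBP3, LRRC75A and TMEM248 before YWHAE and INPP5K after it had log2 fold changes between -0.16 and 0.16 against basal 24 °C birds.

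Proteins that 14-3-3 dimers bind when phosphorylated were covered by a list of 61 genes, of which 42 were in the table and tested. None passed in any of the 6 pairwise comparisons by edgeR, where 0 of all 13742 tested genes (0%) did, so this says nothing particular of the list. Against basal 24 °C birds, 18 were higher and 24 lower in basal 35 °C birds (median log2 fold change -0.014, over all genes 0.00040), 27 higher and 15 lower in L-citrulline 24 °C birds (median 0.019, all genes 0.0067), and 26 higher and 16 lower in L-citrulline 35 °C birds (median 0.021, all genes 0.0090). Of all tested genes, 49.9%, 47.6% and 46.8% were lower in these comparisons. At an unadjusted p under 0.05 these comparisons had 1, 1 and 3 of the 42 genes, where all tested genes had shares of 3.69%, 6.97% and 3.88%. Between the treatment groups the counts were 1 of 42 in L-citrulline 35 °C against L-citrulline 24 °C birds, 3 in L-citrulline 35 °C against basal 35 °C birds and 2 in basal 35 °C against L-citrulline 24 °C birds, where all genes had 6.71%, 6.43% and 4.33%. HDAC7, a histone deacetylase that 14-3-3 proteins hold in the cytoplasm, had 51.8 ± 5.7 CPM in L-citrulline 35 °C birds and 43.9 ± 4.2 CPM in basal 24 °C birds (log2 fold change 0.24 ± 0.070, adjusted p = 0.983 by edgeR). FOXO1, a transcription factor kept out of the nucleus in the same way, had 21.4 ± 1.8 CPM in L-citrulline 35 °C birds and 18.2 ± 1.9 in basal 24 °C birds, and GABBR2, a subunit of the GABA-B receptor, had 75.8 ± 10.5 CPM in L-citrulline 24 °C birds and 89.3 ± 8.9 in basal 24 °C birds. Neither passed (adjusted p = 0.983 and 0.677 by edgeR). AANAT, the melatonin-pathway enzyme that 14-3-3 binding protects from degradation in mammals, was close to the limit of detection, at 1.09 ± 0.37 CPM in basal 35 °C birds and 0.545 ± 0.32 in basal 24 °C birds, and MLXIPL, a glucose-responsive transcription factor, had 3.10 ± 0.73 and 3.85 ± 0.62 CPM in these groups.

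Of 45 kinases known to phosphorylate such sites, 40 were in the table and tested. None passed in any of the 6 comparisons, where 0 of all 13742 tested genes (0%) did. In basal 35 °C birds 17 were higher and 23 lower than in basal 24 °C birds (median log2 fold change -0.023), in L-citrulline 24 °C birds 14 and 26 (median -0.033), and in L-citrulline 35 °C birds 22 and 18 (median 0.0056). Of all tested genes, 49.9%, 47.6% and 46.8% were lower in these comparisons, with medians of 0.00040, 0.0067 and 0.0090. At an unadjusted p under 0.05 there were 0, 3 and 1 of the 40, where 3.69%, 6.97% and 3.88% of all genes were. In L-citrulline 35 °C against L-citrulline 24 °C birds 29 were higher and 11 lower (median 0.056, all genes 0.0066), with 3 of 40 at that level, and in L-citrulline 35 °C against basal 35 °C birds 25 and 15 (median 0.051, all genes 0.0058), with 2 of 40. Lower genes made up 47.6% and 48.2% of all tested genes there. In basal 35 °C against L-citrulline 24 °C birds the median was 0.034 (all genes -0.0029), with 3 of 40. The shares of all genes in these comparisons were 6.71%, 6.43% and 4.33%. PRKCA, a protein kinase C, had 528.0 ± 172 CPM in L-citrulline 24 °C birds and 692.0 ± 59 in basal 24 °C birds (log2 fold change -0.39 ± 0.14, adjusted p = 0.632 by edgeR). PAK1, a kinase of the cytoskeleton, had 47.5 ± 10.5 and 63.2 ± 6.4 CPM there (-0.41 ± 0.15, adjusted p = 0.644 by edgeR). AKT1, the kinase that creates many 14-3-3 sites downstream of insulin, had 54.0 ± 4.2 CPM in basal 35 °C birds and 58.9 ± 2.9 in basal 24 °C birds, and STK11, the upstream kinase of the AMPK family, had 45.0 ± 2.1 and 42.3 ± 1.8 CPM. AKT2 had 44.8 ± 5.1 CPM in L-citrulline 35 °C birds and 39.1 ± 4.0 in basal 24 °C birds, and MARK2, a kinase of microtubule proteins, 49.1 ± 2.3 and 45.7 ± 2.6 CPM (adjusted p of 0.983 to 1 for these 4 by edgeR).

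The enzymes and transporters of monoamine synthesis, the pathway that gave the family its gene symbols, were covered by 15 genes, of which 14 were in the table and 12 were tested. None passed in any comparison, where 0 of all 13742 tested genes (0%) did. Against basal 24 °C birds, 10 were higher and 2 lower in basal 35 °C birds (median log2 fold change 0.17), 11 higher and 1 lower in L-citrulline 24 °C birds (median 0.28), and 2 higher and 10 lower in L-citrulline 35 °C birds (median -0.13). Of all tested genes, 49.9%, 47.6% and 46.8% were lower in these comparisons, with medians of 0.00040, 0.0067 and 0.0090. At an unadjusted p under 0.05 these comparisons had 1, 1 and 0 of the 12 genes, where 3.69%, 6.97% and 3.88% of all genes were. The 1 gene in basal 35 °C birds was AANAT, close to the limit of detection. It is also the 1 gene counted there in the list of 14-3-3 partners. Between the treatment groups, 1 was higher and 11 lower in L-citrulline 35 °C than in L-citrulline 24 °C birds (median -0.30), with 4 of 12 at an unadjusted p under 0.05, where 922 of 13742 genes (6.71%) were. In L-citrulline 35 °C against basal 35 °C birds 0 were higher and 12 lower (median -0.28), with 2 of 12 at that level, where 884 genes (6.43%) were. Of all tested genes, 47.6% and 48.2% were lower in these 2 comparisons. In basal 35 °C against L-citrulline 24 °C birds the median was -0.037, with 1 of 12 at that level, where 4.33% of genes were. The mean ciliated ependyma score was also higher in basal 35 °C (0.21) and L-citrulline 24 °C birds (0.72) than in L-citrulline 35 °C birds (-0.42) and basal 24 °C birds (-0.51), and its part in these counts was not tested. TH, tyrosine hydroxylase, had 5.80 ± 3.2 CPM in basal 35 °C birds, 7.64 ± 4.7 in L-citrulline 24 °C birds, 4.46 ± 2.6 in L-citrulline 35 °C birds and 5.13 ± 0.87 in basal 24 °C birds. TPH2, the neuronal tryptophan hydroxylase, had 9.83 ± 4.0, 6.98 ± 4.0 and 9.50 ± 4.4 CPM in those 3 groups and 9.98 ± 1.2 in basal 24 °C birds. Neither gene passed in a comparison with basal 24 °C birds, with adjusted p of 0.818 or more by edgeR, and the birds of the treatment groups spread more widely than the control birds. SLC6A4, the serotonin transporter, had 2.64 ± 1.4 CPM in L-citrulline 24 °C birds and 1.30 ± 0.42 in basal 24 °C birds (log2 fold change 1.02 ± 0.38, adjusted p = 0.644 by edgeR). PCBD1, of the tetrahydrobiopterin cofactor cycle, had 46.4 ± 3.9 CPM in basal 35 °C birds and 38.5 ± 10.5 in basal 24 °C birds. QDPR, of the same cycle, and DDC, aromatic amino acid decarboxylase, had 134.7 ± 15 and 14.4 ± 7.1 CPM in L-citrulline 35 °C birds and 149.8 ± 11 and 20.3 ± 5.7 CPM in basal 24 °C birds, and none of the 3 passed (adjusted p of 0.983 to 1 by edgeR).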

How the data were processed

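RNA was extracted with TRIzol, per the labels' protocols. Tools that the submitters' processing notes list are HISAT2, TopHat, HTSeq and DESeq, with build GRCg6a. Their versions, the counting mode and the strand setting are not stated there. The authors' deposited expression table gives every library a column of read counts and a column of FPKM. A recomputation from count, gene length and library total matched each deposited FPKM (relative difference at most 1.7e-14). The authors' deposited comparison tables hold log2 fold changes (second group over first) and p-values, quoted only where named.

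Groups came from the treatment label. No libraries of the same group were copies (chi-square over degrees of freedom 7.19 to 88.3 in 60 pairs within groups). Pairs between groups were not compared in this way. In R 4.3.3, filterByExpr kept 13742 of 16779 genes. TMM factors were 0.967 to 1.03, and CPM is the count over the TMM-scaled library size. A quasi-likelihood model in edgeR 4.0.16 held a mean for each of the 4 groups, with 20 residual degrees of freedom and a biological coefficient of variation of 0.186. P-values of each contrast were adjusted by Benjamini-Hochberg over all tested genes, with a threshold of 0.05. Confidence intervals are 95%. The scripts were tested on simulated data. Correlations use log2 CPM and two-sided permutation tests of 100000 resamples in Python 3.11.15, whose smallest possible p is 1e-05. A marker score is the mean z-score of log2 CPM over the list.

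Alternatives were other size factors, other filters, DESeq2 1.42.0, voom in limma 3.58.1, the replicate number as a block, the W class or the oligodendrocyte score as a covariate, and leaving out each library. The members and the lists were chosen with earlier results of these data known. Named genes outside the family are the 6 highest and 4 lowest by r to YWHAE, the 4 nearest on each side of it, and from each list the 2 smallest p in each comparison with basal 24 °C, plus TH and TPH2. No sequence of these genes was used here.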

Additional observations from a re-analysis of the deposited data

Results flagged for a closer look

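In 24 sets of 6 birds (6 genes in 4 groups), the highest or lowest bird stood apart from the rest by more than Dixon's 95% critical gap of 0.625 of the range in 2, and chance alone flags about 1 in 20 sets. YWHAZ had 1389 CPM in bird 6 of the basal 24 °C group, with a gap of 0.655 of the range, where the other 5 birds had 1079 to 1186 CPM. YWHAB had 1242 CPM in bird 3 of the L-citrulline 35 °C group, with a gap of 0.652, the same bird that had the lowest oligodendrocyte score of all 24. No bird stood apart in this way for YWHAE.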

How the results depend on the processing

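Of 36 log2 fold changes of members between groups, each recomputed under 32 alternatives, 0 of 1152 values passed the adjusted threshold and 37 had the opposite sign, for 13 fold changes that were -0.053 to 0.038 at first. With the oligodendrocyte score as a covariate, chosen after seeing the data, YWHAE had -0.0009 (L-citrulline 35 °C minus basal 35 °C birds) and 0.0115 (basal 35 °C minus L-citrulline 24 °C birds). In the first of these comparisons YWHAZ had 0.0204, in the second YWHAQ had -0.0038, and in basal 35 °C minus basal 24 °C birds YWHAG had -0.0263. Leaving out each bird, the values of L-citrulline 35 °C minus L-citrulline 24 °C birds ran from -0.0419 to 0.055 for YWHAE, from -0.0627 to 0.0522 for YWHAG and from -0.1493 to 0.0294 for YWHAH. Those of L-citrulline 35 °C minus basal 35 °C birds ran from -0.0226 to 0.0699 for YWHAE and from -0.1436 to 0.0129 for YWHAZ, and those of basal 35 °C minus L-citrulline 24 °C birds from -0.05 to 0.0189 for YWHAE and from -0.0069 to 0.0402 for YWHAQ. In basal 35 °C minus basal 24 °C birds they ran from -0.1055 to 0.0064 for YWHAZ, -0.0085 to 0.0353 for YWHAB and -0.0299 to 0.0385 for YWHAG. In L-citrulline 24 °C minus basal 24 °C birds they ran from -0.039 to 0.0034 for YWHAB, -0.0152 to 0.0323 for YWHAQ and -0.0862 to 0.0143 for YWHAH. The cause was not tested. Against basal 24 °C birds YWHAE ran from -0.36 to -0.30 in basal 35 °C, from -0.35 to -0.28 in L-citrulline 24 °C and from -0.35 to -0.26 in L-citrulline 35 °C birds; since the gene was chosen for these values, their sign is no measure of stability.

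Counts of called genes were 0 by edgeR in all 9 contrasts. DESeq2 called 8 genes in L-citrulline 24 °C against basal 24 °C birds, 6 in L-citrulline 35 °C against L-citrulline 24 °C birds, 1 in L-citrulline 35 °C against basal 35 °C birds, 1 in basal 35 °C against L-citrulline 24 °C birds and 2 for the interaction. In L-citrulline 35 °C against L-citrulline 24 °C birds, limma voom called 1 gene and the fit with the oligodendrocyte score 1. Leaving out each bird gave 0 to 1 genes in that comparison, in L-citrulline 24 °C against basal 24 °C birds and in basal 35 °C against L-citrulline 24 °C birds. No member was among these calls. With the replicate number as a block, 0 genes were called in every contrast and the log2 fold changes of YWHAE against basal 24 °C birds were -0.33, -0.31 and -0.29. Deviations of same-numbered birds had correlations of -0.50 to 0.56 over 36 pairs (median -0.113). Birds with other numbers had -0.69 to 0.69 over 180 pairs (median 0.009). The numbers were therefore not taken to pair birds. Counts of 392 to 648 bring a counting error of 3.93% to 5.05% to YWHAE, and the 6 birds per group limit the precision of all 6 genes.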

Other observations

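SFN, which was too low for the main test, had counts of 0 to 11 per library. In a fit without the filter its log2 fold change in L-citrulline 24 °C birds against basal 24 °C birds was 1.57 ± 0.69 and in L-citrulline 35 °C birds against basal 24 °C birds 2.09 ± 0.67 (adjusted p = 0.712 and 0.963 by edgeR). In basal 35 °C birds against basal 24 °C birds it was 0.215 ± 0.79. L-citrulline 35 °C birds had 0.525 ± 0.57 against L-citrulline 24 °C birds and 1.88 ± 0.66 against basal 35 °C birds. Basal 35 °C birds had -1.35 ± 0.68 against L-citrulline 24 °C birds. None of these values passed. At least 1 count was seen in 5 basal 35 °C birds, 6 L-citrulline 24 °C birds, 6 L-citrulline 35 °C birds and 3 basal 24 °C birds.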
